A study of Homo sapiens with 4 samples.

Results

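The *HAND2* locus was described through every H3K27ac peak on chromosome 4 that overlapped the GENCODE gene bodies of *HAND2* and *HAND2-AS1* or the 100 kb on either side. In GRCh38, *HAND2* (ENSG00000164107.9) lies on the minus strand from 173524969 to 173530229, and *HAND2-AS1* (ENSG00000237125.13) lies on the plus strand from 173527270 to 173659696. The window ran from 173424969 to 173759696, a length of 334728 bp, and *HAND2* was the only protein-coding gene in it. It held 16 of 63699 peaks in sgCtrl cells and 9 of 50119 in sgSNHG1 cells.

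HAND2 is a basic helix-loop-helix transcription factor of sympathetic neurons, the heart and the limb buds, and in neuroblastoma it belongs to the noradrenergic core regulatory circuitry. It binds E-box sequences as a dimer with E proteins such as TCF3, TCF4 and TCF12. *HAND2-AS1* is a long noncoding RNA gene on the opposite strand, whose annotated body begins within that of *HAND2* and extends past the *HAND2* start. Acetylation of histone H3 at lysine 27 (H3K27ac) marks active promoters and enhancers.

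The cells were SK-N-BE(2)C, a *MYCN*-amplified neuroblastoma line, and both groups received Cas9 with guide RNAs, were selected in puromycin and were expanded from sorted single cells. The sgCtrl group received a non-targeting guide and is labelled wildtype, and the sgSNHG1 group received a pair of guides against the long noncoding RNA gene *SNHG1* and is labelled knockout. Each group had 2 ChIP-seq samples, which the authors pooled before they called peaks, and the clone used was not named, so a difference between clones cannot be told apart from an effect of the guides. With 1 list per group there is no spread between replicates, no difference could be tested, and all intervals below cover counting error only.

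The lists held H3K27ac peaks at or near most noradrenergic markers of neuroblastoma, and at or near at least 3 of 6 mesenchymal markers. A peak lay within 1 kb of a start site for 11 of 12 noradrenergic markers in sgCtrl and for 12 of 12 in sgSNHG1, *HAND2* among them in both. *DBH* had such a peak in the sgSNHG1 list alone. For mesenchymal markers the counts were 5 and 3 of 6, where *COL1A1* and *COL1A2*, which encode the chains of type I collagen, had such a peak in the sgCtrl list alone. Peaks directly over a start site, the reading planned beforehand, were fewer. They were found for 8 and 9 of 12 noradrenergic markers and for 4 and 3 of 6 mesenchymal markers, in sgCtrl and sgSNHG1. In sgCtrl the share was thus the same for both kinds of marker. The share of all genes with a peak at the start was not computed, so these counts do not set the cell type. The part of the mesenchymal genes in the values at *HAND2* was not tested.

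4 stretches of reference sequence from the locus are printed, the last of which, the promoter, lay under no peak of either list. The first is the centre of the matched peak with the highest −log10 p, in an exon of *HAND2-AS1* (chr4:173538067-173538366). The second is the matched peak whose fold enrichment was higher in sgSNHG1 by the most (chr4:173523587-173523886), and the third is the 1 sgSNHG1 peak that overlapped no sgCtrl peak (chr4:173524427-173524660). The last is the 250 bases before the main *HAND2* start, from RefSeq in GRCh38 (chr4:173530230-173530479, minus strand, where the other sequences are on the plus strand). The last 3 were chosen after their values were seen. Capitals mark matches to CANNTG, the E-box, and to AGATAA or its reverse complement, the GATA motif.
Matched peak in *HAND2-AS1*: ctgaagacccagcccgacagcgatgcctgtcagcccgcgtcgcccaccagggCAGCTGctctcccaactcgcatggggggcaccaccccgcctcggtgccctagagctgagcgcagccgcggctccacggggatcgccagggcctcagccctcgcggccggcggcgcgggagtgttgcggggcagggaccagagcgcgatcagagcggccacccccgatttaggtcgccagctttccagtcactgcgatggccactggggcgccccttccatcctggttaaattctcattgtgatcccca
Matched peak downstream of *HAND2*: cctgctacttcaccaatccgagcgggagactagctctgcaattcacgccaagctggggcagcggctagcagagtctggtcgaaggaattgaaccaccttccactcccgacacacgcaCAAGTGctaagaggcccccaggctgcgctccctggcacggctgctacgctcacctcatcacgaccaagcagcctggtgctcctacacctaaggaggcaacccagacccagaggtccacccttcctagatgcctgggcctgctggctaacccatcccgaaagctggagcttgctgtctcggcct
Unmatched sgSNHG1 peak: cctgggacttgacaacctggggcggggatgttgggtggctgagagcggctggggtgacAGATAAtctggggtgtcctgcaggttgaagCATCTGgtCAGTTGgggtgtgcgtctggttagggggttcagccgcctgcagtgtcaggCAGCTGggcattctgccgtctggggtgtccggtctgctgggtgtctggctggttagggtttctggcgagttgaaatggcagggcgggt
*HAND2* promoter: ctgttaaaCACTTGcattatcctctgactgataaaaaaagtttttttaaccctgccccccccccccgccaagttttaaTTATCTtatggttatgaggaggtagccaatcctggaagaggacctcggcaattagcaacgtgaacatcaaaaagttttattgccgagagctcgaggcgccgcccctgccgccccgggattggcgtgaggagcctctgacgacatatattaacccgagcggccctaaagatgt

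The matched peak in *HAND2-AS1* was GC-rich, at 69.0%, with 1 E-box. The unmatched sgSNHG1 peak held 3 E-boxes, of which 1 was CATCTG, a form bound by HAND and TWIST proteins, and 1 GATA motif. The promoter held 1 E-box and 1 GATA motif at a GC content of 49.6%. On both strands and over all 1106 sgCtrl peaks of chromosome 4 from 51800000 on, taken as 300 bases around the summit, CANNTG occurred in 75.7%, CATCTG (which is also counted as CANNTG) in 12.8% and AGATAA in 2.98%. In the 250 bases before each of 35116 RefSeq starts the shares were 61.8%, 12.2% and 9.17%. Among the window's sgCtrl peaks, an E-box was present in 4 of the 8 matched and 5 of the 8 unmatched peaks, CATCTG in 0 and 1, and AGATAA in 0 and 0. CACGTG, the E-box of MYC dimers, was in none of these 16 peaks and in 4.61% of the peaks of that stretch. A match is a match of letters, and no binding was measured.

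The sgCtrl peaks at *HAND2* divided into 8 near the gene that had a counterpart in sgSNHG1 and 8 farther away that had none. The matched share, counting any overlap of 1 bp or more, was 50.0% of 16 (95% Wilson interval 28 to 72%). In the other direction 8 of the 9 sgSNHG1 peaks (88.9%, 56.5 to 98%) had an sgCtrl counterpart. The number of peaks in sgSNHG1 was 0.562 times that in sgCtrl, and the bases under peaks went from 9990 to 4599, a ratio of 0.460.

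The matched peaks lay together in 29719 bp around *HAND2*, from 173509236 to 173538954. That span reached 21.0 kb past the *HAND2* start in the direction of its transcription (downstream) and 8.7 kb in the other direction (upstream, over *HAND2-AS1*). Within it the lists held 8 sgCtrl and 9 sgSNHG1 peaks, covering 6395 and 4599 bp, a ratio of 0.719. Elsewhere in the window they held 8 sgCtrl peaks, over 3595 bp, and 0 sgSNHG1 peaks. A count of 0 called peaks says that no site passed the authors' threshold, not that the mark was absent.

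**Figure D1:**
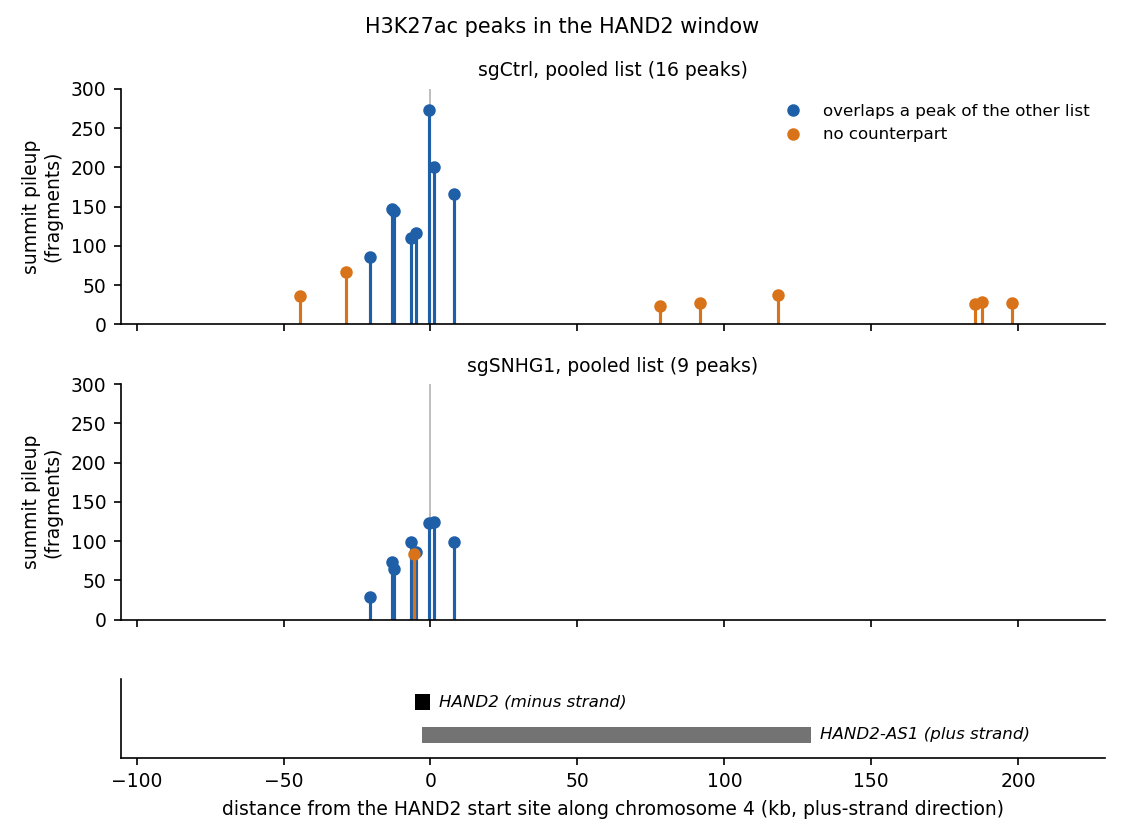
Summit pileup in fragments (y axis) of each peak in the window, by distance in kb from the *HAND2* start in the plus-strand direction (x axis, negative values downstream of *HAND2*), for sgCtrl (upper) and sgSNHG1 (lower), with the gene bodies beneath. Blue points overlap a peak of the other list and orange points do not. The 8 matched sgCtrl peaks cluster around the gene at 86 to 273 fragments, and the 8 unmatched sgCtrl peaks lie farther out at 23 to 67.

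For each peak the lists gave a fold enrichment (the summit over the local background estimated by the peak caller) and a −log10 p. From these, the pileup, which is the number of fragments over the summit, was recovered. The *HAND2* gene body carried 2 of the matched peaks. The peak over its 5′ part covers coding and untranslated sequence. It also lies on *HAND2-AS1*, touching an exon in sgCtrl and only an intron in sgSNHG1. This peak spanned 173528672 to 173529887 in sgCtrl, where it had a fold enrichment of 4.04 and 273 fragments, the highest pileup in the window. In sgSNHG1 it spanned 173528896 to 173529826, and it had a fold enrichment of 2.82 and 123 fragments. The pileup ratio was 0.451 (95% counting interval 0.361 to 0.559). At the other end of the gene, in its 3′ untranslated exon, the peak from 173525203 to 173525426 had a fold enrichment of 1.91 and 117 fragments in sgCtrl, and 2.20 and 86 fragments in sgSNHG1. Its pileup ratio was 0.735 (0.550 to 0.979, an interval that holds 0.875), higher than at the 5′ part, and this difference was not tested.

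No peak of either list covered the main *HAND2* start at 173530229. The uncovered gap ran from 173529888 to 173531241 (1354 bp) in sgCtrl and from 173529827 to 173531332 (1506 bp) in sgSNHG1. It lay between the peak over the 5′ part of *HAND2* and the next peak upstream, over *HAND2-AS1*. Of the 3 annotated *HAND2* transcript starts, 2 were in the sgCtrl gap and 1, at 173528912, was under the peak of both lists. Of the 65 annotated *HAND2-AS1* transcript starts, 54 were in the gap, and the promoter sequence printed above lies within it.

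Over *HAND2-AS1*, both lists had 2 further peaks near the shared start region. The nearer, from 173531242 to 173531873 in sgCtrl, had 201 fragments there and 125 in sgSNHG1, a ratio of 0.622 (0.493 to 0.781), with its summit at the same base. The farther, from 173537727 to 173538954, had the highest −log10 p of the window in both lists, 81.38 and 43.37, and ranked 94th and 95th among the peaks of chromosome 4 from 51800000 on. These ranks are not alike, since without the window this stretch held 1090 sgCtrl and 443 sgSNHG1 peaks. By fold enrichment the peak stood at percentile 88.0 of the whole sgCtrl list and 79.7 of the sgSNHG1 list. Its fold enrichment was 6.82 in sgCtrl and 5.72 in sgSNHG1, with 166 and 99 fragments, a ratio of 0.596 (0.460 to 0.770). Its boundaries were nearly the same in both lists, and its sequence is the first printed above.

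Downstream of *HAND2*, 4 sgCtrl peaks were matched. The nearest, in intergenic sequence from 173523566 to 173524158 and 6.49 kb from the start, had a fold enrichment of 2.25 in sgCtrl and 3.06 in sgSNHG1, with 110 and 99 fragments. Its pileup ratio of 0.900 (0.679 to 1.192) was the highest of the locus, and its interval included both 1 and the general shift of 0.875. The peaks from 173516761 to 173517298 and from 173517710 to 173519041, both in an exon of the noncoding gene ENSG00000288776, had 147 and 144 fragments in sgCtrl and 73 and 64 in sgSNHG1. Their ratios were 0.497 (0.370 to 0.662) and 0.444 (0.326 to 0.601), and the sgSNHG1 peak of the second was 19.4% as long as the sgCtrl peak. The farthest, from 173509236 to 173509867 in an exon of ENSG00000286039, had 86 and 29 fragments, and its ratio of 0.337 (0.213 to 0.519) was the lowest of the locus.

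The 1 sgSNHG1 peak with no counterpart ran from 173524427 to 173524660, 5.67 kb downstream of the *HAND2* start and just beyond the end of the gene. It had a fold enrichment of 2.30, a −log10 p of 11.43 and 83 fragments over a local background of 35.59. The nearest sgCtrl peak was 269 bp away, and it is the intergenic matched peak with the highest ratio. The sgCtrl peaks on either side had 110 and 117 fragments over local backgrounds of 48.37 and 60.65. The sgCtrl signal at this site was not measured here, so the lack of an sgCtrl call does not show that the mark was absent. On the rest of the chromosome 4 stretch 8.13% of the sgSNHG1 peaks had no sgCtrl counterpart, and outside the stretch 20.9% had none.

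Across the 8 matched pairs, the summit pileup was lower in sgSNHG1 in 8, with a median ratio of 0.544. It was lower in 91.9% of the pairs on the rest of the stretch and in 66.1% of those outside. Outside the stretch the median ratio over 38176 pairs was 0.875, or -0.19 on the log2 scale, which was taken as the general shift between the lists. Relative to that shift, 7 of 8 pairs were lower, with a median log2 difference of -0.69. Of the 396 pairs on the rest of the stretch, 89.6% were lower relative to that shift and the median was -0.53, with quartiles of -0.77 and -0.21. The median at *HAND2* was thus within the quartiles of the rest of the stretch. The intergenic pair with the highest ratio stood at percentile 90.2 of these pairs, and the farthest downstream pair at percentile 2.8.

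**Figure D2:**
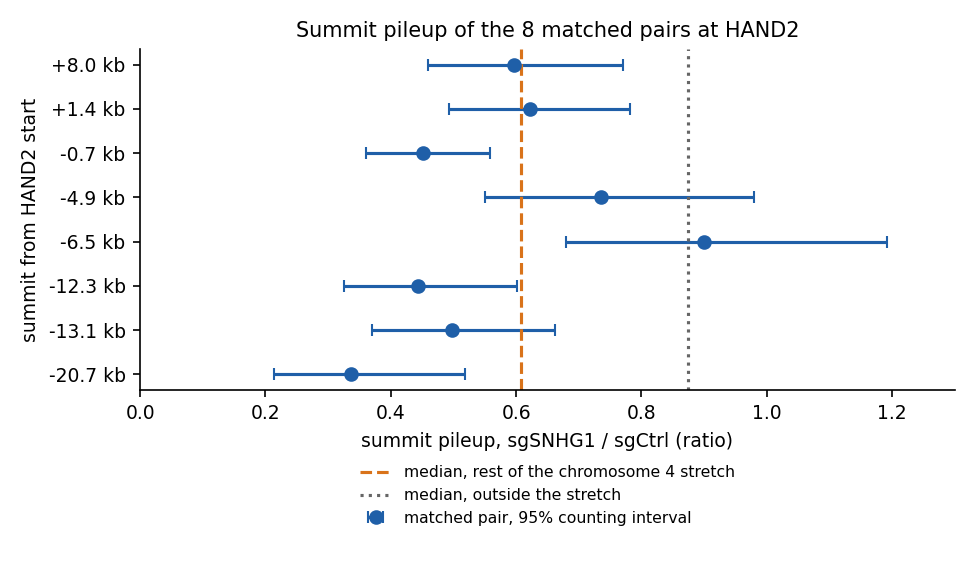
Ratio of summit pileup in sgSNHG1 to sgCtrl (x axis) for the 8 matched pairs, by distance of the sgCtrl summit from the *HAND2* start in kb (y axis, negative values downstream of *HAND2*). Bars are 95% counting intervals, the dashed line is the median of the rest of the chromosome 4 stretch (0.608) and the dotted line that outside it (0.875). The ratios ran from 0.337 to 0.900.

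The fold enrichment differed less between the lists than the pileup. It was lower in sgSNHG1 in 6 of 8 pairs, against 70.5% of the pairs on the rest of the stretch and 55.2% outside. The median log2 difference was -0.16 at *HAND2*, -0.17 on the rest of the stretch and -0.03 outside. Since fold enrichment divides by the local background, the background was compared as well. Relative to the pairs outside the stretch, the local background at *HAND2* was lower in sgSNHG1 in 8 of 8 pairs, with a median log2 difference of -0.52. On the rest of the stretch it was lower in 79.8% of pairs, with a median of -0.42, and outside in 50%, a share that the scaling fixes. The summit pileup and the local background were therefore both lower in sgSNHG1, so the fold enrichment recorded only part of the difference in pileup. The background of the matched sgCtrl peaks was 19.77 to 66.80. It may include signal from neighbouring peaks of the cluster, so it is not a separate measurement. On the rest of the stretch many pairs stood at the commonest background of each list, 4.893 in sgCtrl and 4.658 in sgSNHG1, which limits the comparison of these medians. Where both fall together, a lower level of the mark and fewer copies of the underlying DNA cannot be told apart in these lists, and no control library of DNA was named in the sources used here.

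The 8 sgCtrl peaks without a counterpart were all more than 25 kb from the *HAND2* start, and the nearest was at 28.78 kb. Downstream, 2 lay in intergenic sequence, from 173485720 to 173486009 (36 fragments) and from 173500927 to 173501679 (67 fragments). Upstream, 3 lay in introns of *HAND2-AS1*, from 173608418 to 173608782, from 173621849 to 173622190 and from 173648546 to 173648824, with 23, 27 and 37 fragments. A further 3 lay in introns of the noncoding gene *LINC02269*, from 173715614 to 173716411, from 173717628 to 173717932 and from 173727815 to 173728277, with 26, 29 and 27 fragments. All 8 were among the shallower peaks of the window.

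The unmatched and the matched sgCtrl peaks were separated by pileup, 23 to 67 against 86 to 273 fragments, but not by fold enrichment. The fold enrichment of the unmatched peaks ran from 4.07 to 6.45 with a median of 4.75, and that of the matched peaks from 1.91 to 6.82 with a median of 4.11. The −log10 p ran from 9.27 to 22.56 for the unmatched and from 10.33 to 81.38 for the matched peaks. Unmatched peaks were also shorter, with a median of 353.5 bp against 632 bp. In 7 of the 8 unmatched peaks the local background was 4.89, the commonest value of the sgCtrl list, which 12.3% of its peaks shared.

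The shallowest peak called had 19 fragments in sgCtrl and 18 in sgSNHG1. Multiplied by 0.608, the median pileup ratio of the rest of the stretch, the pileups of the 8 unmatched peaks would be between 14.0 and 40.8 fragments. Of these, 5 fall below 18, and the other 3, at 21.9, 22.5 and 40.8, do not. The ratio of 0.608 comes from pairs called in both lists. It leaves out the 691 of 1090 sgCtrl peaks of the rest of the stretch with no counterpart, so it may be too high for unmatched peaks. This is arithmetic on the lists, and the sgSNHG1 signal at these places was not measured here.

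Part of the unmatched peaks sat in repeated sequence. In 30-base stretches taken across the 300 bases around each summit, 4 of the 8 unmatched sgCtrl peaks had a median of more than 1 copy in the reference genome, and 0 of the 8 matched peaks did. These were the intergenic peak at 173485720, with a median of 2.5 copies, and the peaks in introns of *HAND2-AS1* at 173608418, 173621849 and 173648546, with 32.5, 9.5 and 589.5. On the rest of the stretch, 29.1% of the 691 unmatched and 17.3% of the 399 matched sgCtrl peaks were of this kind. Counting only peaks in single-copy sequence, 8 of 12 sgCtrl peaks at *HAND2* were matched (66.7%, 39.1 to 86.2%), against 40.2% of 820 on the rest of the stretch. How the authors' alignment placed reads from repeats was not given in the sources used here, and its part in the calls was not tested.

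Whether a peak was matched followed its strength, at *HAND2* as elsewhere. Of the sgCtrl peaks in the window, 5 of 5 with a −log10 p of 40 or more were matched, 1 of 3 between 20 and 40, 2 of 7 between 10 and 20, and 0 of 1 under 10. On the rest of the stretch the shares from the strongest class down were 96.3%, 58.4%, 14.2% and 5.95%, and outside the stretch 99.7%, 93.2%, 53.3% and 24.8%. The shares at *HAND2* rested on at most 7 peaks each, and the interval of each included the value of the rest of the stretch.

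**Figure D3:**
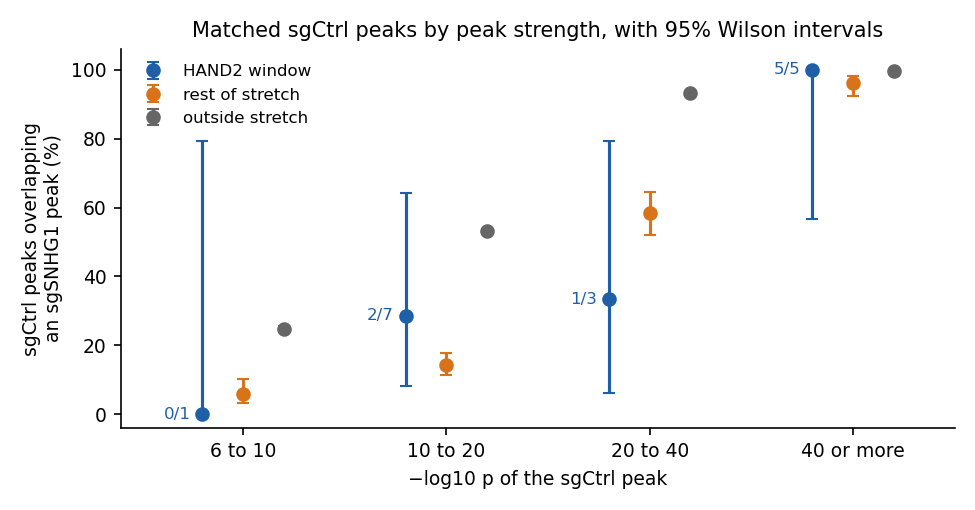
Share of sgCtrl peaks that overlapped an sgSNHG1 peak, in percent (y axis), by class of −log10 p of the sgCtrl peak (x axis), for the *HAND2* window, the rest of the chromosome 4 stretch and the sequences outside it. Bars are 95% Wilson intervals and the labels give the counts at *HAND2*, which go from 0 of 1 in the weakest class to 5 of 5 in the strongest.

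The matched and unmatched peaks also differed in their distance from a protein-coding start. Within 25 kb of one, a limit chosen after the values were seen, 8 of 8 sgCtrl peaks of the window were matched, against 51.9% of 594 on the rest of the stretch and 64.7% outside. Beyond 25 kb the shares were 0 of 8, 18.3% of 496 and 54.7%. In each set the matched share was higher near a start than far from it, as counts of these lists and with no test. GC content went the same way, with a median of 65.3% over the matched and 55.7% over the unmatched sgCtrl peaks of the window, and 69.3% and 61.7% on the rest of the stretch.

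The *HAND2* window lay in a long part of chromosome 4 where the sgSNHG1 list held fewer peaks throughout. Without the window, chromosome 4 from 51800000 on held 1090 sgCtrl and 443 sgSNHG1 peaks, a ratio of 0.406, and outside this stretch the ratio was 0.794. On chromosome 4 before 51800000 it was 0.751. On the rest of the stretch 63.4% of the sgCtrl peaks had no sgSNHG1 counterpart, and outside it 38.1% had none, beside the 8 of 16 at *HAND2*. The Wilson interval for the matched share at *HAND2*, 28 to 72%, held the matched shares of the rest of the stretch (36.6%) and of the sequences outside it (61.9%), so the number of peaks at *HAND2* was too small to tell these apart.

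In bins of 10 Mb along the stretch, the ratio of peak numbers was between 0.2 and 0.63, and every bin was below the 0.794 found outside. The bin centred on *HAND2* held 111 sgCtrl and 53 sgSNHG1 peaks, a ratio of 0.477, and its neighbours had 0.364 and 0.321. In the 1 Mb on either side of the gene bodies, with the window left out, 37 sgCtrl and 24 sgSNHG1 peaks were called, a ratio of 0.649. Of the 37 sgCtrl peaks, 17 were matched (45.9%, 31.0 to 61.6%).

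**Figure D4:**
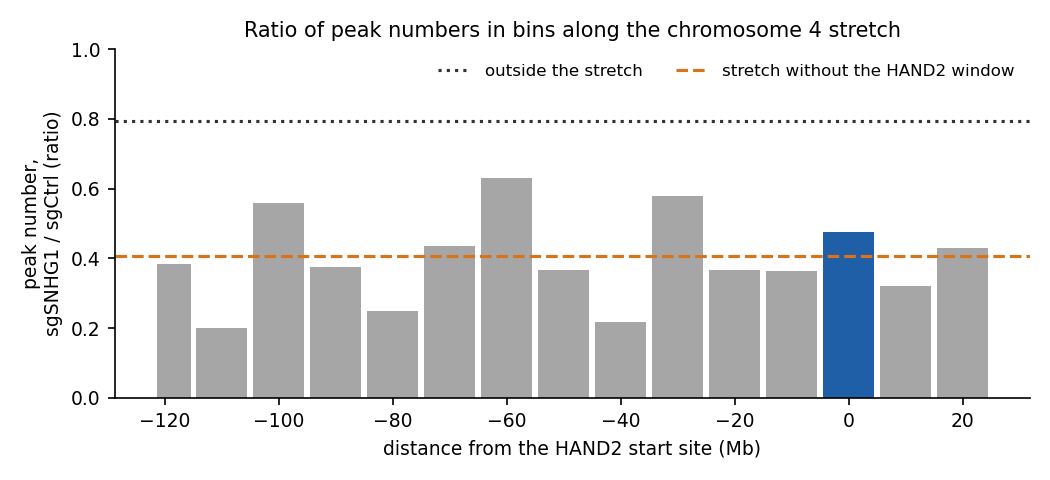
Number of sgSNHG1 peaks divided by the number of sgCtrl peaks (y axis) in bins of 10 Mb by distance from the *HAND2* start in Mb (x axis), from 51800000 to the end of chromosome 4. The bin around *HAND2* is blue (0.477), the dashed line is the stretch without the *HAND2* window (0.406) and the dotted line is the ratio outside the stretch (0.794).

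Among the genes of this stretch, *HAND2* with its full window had one of the highest numbers of sgCtrl peaks. Its place by the ratio of peak numbers depended on the window. Each other protein-coding gene was given its own body plus 100 kb, and 277 of 519 had at least 3 sgCtrl peaks and did not overlap the *HAND2* window. The *HAND2* window also took in *HAND2-AS1*, and its 334728 bp compare with a median of 265525 bp for these genes, so the windows are not alike. Of these, 87.0% had fewer sgSNHG1 than sgCtrl peaks, and outside the stretch 70.6% of 15408 genes did. The median ratio was 0.5 with quartiles of 0.333 and 0.7, *HAND2* at 0.562 stood at percentile 59.0, and 113 genes were higher. By bases under peaks *HAND2* stood at percentile 48.0, its 0.460 beside a median of 0.469. With the body of *HAND2* alone plus 100 kb, the rule used for the other genes, it had 12 sgCtrl and 9 sgSNHG1 peaks. That ratio of 0.750 stood at percentile 81.6, under a setting chosen after the values were seen. Only 8 of the 277 genes had as many sgCtrl peaks as *HAND2*, and windows that overlap share peaks, so these genes are not independent.

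**Figure D5:**
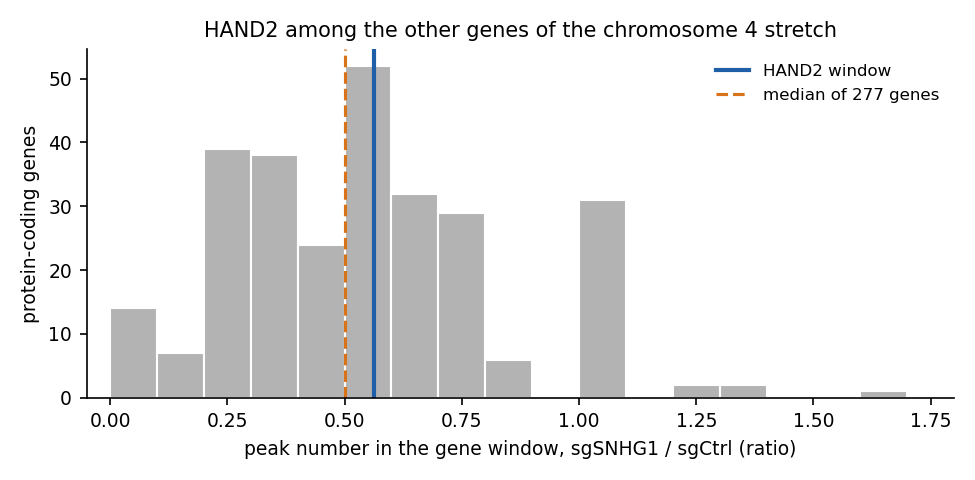
Number of protein-coding genes of the chromosome 4 stretch (y axis) by the ratio of sgSNHG1 to sgCtrl peaks in the gene body plus 100 kb (x axis), for the 277 genes with at least 3 sgCtrl peaks. The blue line is *HAND2* at 0.562, with *HAND2-AS1* included in its window, and the dashed line is the median at 0.5.

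The 5 genes of the stretch nearest to *HAND2* in number of sgCtrl peaks had ratios on both sides of it. ENSG00000288637 went from 16 to 9 peaks, the same numbers as *HAND2*. *MGST2*, a microsomal glutathione transferase, went from 16 to 11 (0.688). *DCTD*, the deoxycytidylate deaminase, went from 15 to 5 (0.333), and ENSG00000282278 from 15 to 6 (0.4). *BMPR1B*, a type I receptor for bone morphogenetic proteins, went from 14 to 4 (0.286). Other genes also had 14 sgCtrl peaks, with ratios on both sides of that of *HAND2*, and *BMPR1B* was taken because its bases under sgCtrl peaks were nearest to those of *HAND2*.

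When sgCtrl peaks within 12.5 kb of each other were joined, as is done to delimit large enhancer clusters, *HAND2* lay in the cluster of the stretch with the most peaks. It ran from 173500927 to 173538954 (38028 bp) with 9 sgCtrl peaks and 7148 bp under them, and ranked 1st of 804 by either measure. The sgSNHG1 list called 9 peaks over 4599 bp there, a ratio of bases of 0.643, and the sgSNHG1 cluster from 173509343 to 173538947 ranked 1st of 342. The 9 other clusters with at least 5 sgCtrl peaks had ratios of bases from 0 to 0.831 and a median of 0.205. All were joined and chosen on sgCtrl peaks, the *HAND2* cluster included, which by itself favours low ratios, so these values are only set side by side. Just 1 of them was higher than the *HAND2* cluster, that from 174211586 to 174225403 with 5 sgCtrl and 4 sgSNHG1 peaks, which overlapped no protein-coding gene. At the other end, the cluster at *PRDM8*, which encodes a PR domain zinc finger protein, had 6 sgCtrl and 0 sgSNHG1 peaks. These 2 clusters were chosen after their values were seen.

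The dimer partners and relatives of HAND2, whose genes lie on other chromosomes, had a median ratio close to that of other genes. With the body of each gene plus 100 kb, 8 of 10 genes of this list had fewer sgSNHG1 peaks, 1 had more and 1 had as many. Of the 15408 genes outside the stretch, 70.6% had fewer. The median ratio was 0.8 in the list and 0.81 over those genes. The E protein genes *TCF3*, *TCF12* and *TCF4* went from 30 to 24, from 12 to 10 and from 6 to 10. *HAND1*, the paralogue of *HAND2*, went from 11 to 8, and *TWIST1* from 9 to 7. *ID2*, which encodes an inhibitor that binds E proteins and keeps them from DNA, went from 20 to 13, the lowest ratio of the list (0.65).

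Bone morphogenetic proteins induce *HAND2* in sympathetic precursors, and HAND2 acts with other factors on the genes for noradrenaline synthesis. Of the 19 genes in this list, 14 had at least 3 sgCtrl peaks. Of these, 7 had fewer sgSNHG1 peaks, 2 had more and 5 had as many, with a median ratio of 0.976. Over the 15408 genes outside the stretch 70.6% had fewer and the median was 0.81. By bases under peaks the medians were closer, at 0.839 in the list and 0.811 over those genes. Those below *HAND2* were *BMPR1B*, which lies on the same stretch of chromosome 4, *INSM1*, a zinc finger factor of neuroendocrine cells, from 9 to 3 (0.333), and *DBH*, the dopamine beta-hydroxylase that makes noradrenaline, from 36 to 15 (0.417). Other factors of the noradrenergic circuitry had closer numbers in both lists, with *MYCN* at 57 and 62 peaks, *TBX2* at 23 and 23, *ISL1* at 4 and 4, and *GATA3* at 18 and 14. *TH*, the rate-limiting enzyme of catecholamine synthesis, had 41 and 32. Set against the 15408 genes outside the stretch, the ratio of 0.562 at *HAND2* stood at percentile 10.2. That ratio has *HAND2-AS1* in its window, and with the body of *HAND2* alone plus 100 kb it was 0.750.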

How the data were processed

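H3K27ac ChIP-seq was analysed from 4 samples of SK-N-BE(2)C cells, 2 per group, as 2 deposited peak lists. Per the methods and labels, the authors trimmed reads with cutadapt, aligned them to GRCh38 with BWA, merged the replicates and ran MACS2 on each merged group at a p-value of 1e-06, with duplicates retained. Versions, a control library and a blacklist filter were not given in the sources used here. The deposited values are a fold enrichment (the ratio of summit to local background), the −log10 of the p-value, a q-value and a score made from the −log10 p, and the last 2 were not used. Depth per sample is unknown. A deeper library gives more and stronger calls, and pooling hides the spread between replicates.

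The pileup was recovered from each fold enrichment and −log10 p, assuming a pseudocount of 1 and a Poisson distribution. It was whole within 0.01 for 99.86% of sgCtrl and 99.87% of sgSNHG1 peaks. Pairs were peaks that overlap by at least 1 bp, the highest fold enrichment of each list being used where several did. Intervals are 95% Wilson, or counting intervals of a ratio. The latter treat every fragment as independent, and since duplicates were retained they may be too narrow. Python 3.11.15, numpy 2.4.6, pandas 2.3.3, scipy 1.17.1, matplotlib 3.10.9 and bedtools 2.31.1 were used with GENCODE release 44, and the steps were tested on simulated data. Named genes were *HAND2*, *HAND2-AS1*, the protein-coding genes of the window, the 5 genes of the stretch nearest in sgCtrl peak number with separate windows, and 2 lists (helix-loop-helix partners, and BMP and noradrenergic genes). The locus and these lists were chosen with earlier results of these data known. Alternatives concerned the flank, the threshold, list size, merging, overlap, measure and genes compared.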

Additional observations from a re-analysis of the deposited data

How the results depend on the processing

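Of 52 values under alternative settings, 44 kept their direction and stayed within set limits, 7 moved past them and 1 reversed. A ratio counted as moved only past a factor of 1.5, and a percentile only past 15 points. Values within the limits could still differ in size, as the ranges below show. The ratio of peak numbers at *HAND2* was between 0.4 and 0.8, that of bases between 0.433 and 0.617, and the matched share of sgCtrl peaks between 43.8 and 70%. The place of *HAND2* among the genes of the stretch went from percentile 59.0 to 85.0 with a flank of 10 kb, 77.0 with 50 kb and 76.9 with 200 kb, and to 48.0, on the other side of the median, by bases under peaks. With settings chosen after seeing the data it was 81.6 with the body of *HAND2* alone and 74.5 without peaks in repeated sequence. The matched share of sgSNHG1 peaks was 100% when a peak within 1 kb counted, and the median log2 difference over pairs was -0.69 with scaled pileup in place of fold enrichment. The causes of these shifts were not tested. No paired analysis was possible because each list was called on reads merged over replicates, and for the same reason no replicate could be left out. The depth of the samples is unknown, and the unmatched peaks had 23 to 67 fragments, where the shallowest peak called in sgCtrl had 19.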
